A study of Danio rerio with 45 samples.

Results

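This comparison set zebrafish explants given 10 pg of ndr2 mRNA together with cycloheximide against uninjected control explants, both at 4 hours post fertilization (hpf). The libraries were chosen by their titles, and 5 of the 45 libraries of the series entered the contrast, 2 with 10 pg and CHX and 3 controls. ndr2 is a Nodal ligand gene, and cycloheximide (CHX) stops ribosomes from elongating, so that no new protein is made. All embryos were of the AB strain, and each library came from the TRIzol RNA of animal-pole explants, cut so as to keep about the upper part of the blastula. In the first group, per the labels, a single animal-pole cell received 10 pg of ndr2 mRNA at the 128-cell stage, and CHX at 50 µg/µl was added 20 min later and kept until harvest. The second group, used beside the main contrast (n = 2), received the same 10 pg without CHX. Control explants (n = 3) came from uninjected embryos without CHX. None of the 15 groups of the series had CHX without ndr2, so a difference from the controls carries both treatments at once. A further column titled as replicate 3 of 10 pg with CHX was equal in all 31465 genes to the column titled replicate 3 of 10 pg at the same age, and both columns were left out. Nothing in the labels says whether the replicates came from separate clutches, so p-values reflect the variation among these libraries alone, and that variation may be technical.

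Nodal ligands bind activin-type receptors with an EGF-CFC co-receptor (Tdgf1 in fish), and the receptors phosphorylate Smad2 and Smad3, which enter the nucleus and act on DNA with partners such as Foxh1, Eomesodermin and Mixl1. In the fish blastula the pathway specifies endoderm and mesoderm, with the Lefty proteins as secreted inhibitors that are themselves Nodal targets. Transcripts that rise while translation is blocked need no protein made after the block, which is why such a treatment is used to look for candidate direct targets of a signal. Explants of the animal pole lie far from the margin where Nodal genes are normally active. The endogenous Nodal signal in these controls was not measured.

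Totals ran from 12137856 to 28551066 counts over the series, and the pair of 10 pg with CHX libraries held 18942862 and 12137856 counts, against 25524210, 24033931 and 19370609 in the controls. Levels are given in CPM, that is counts scaled by library size, and at these totals a level below 1 CPM rests on few counts. Of 31465 genes, 21075 passed the filter on low counts and were tested. The explants carried maternal transcripts of pluripotency factors, which alone do not establish the state of the cells. The maternal factor nanog stood at 1506 and 1276 CPM in 10 pg with CHX and at 1508, 1403 and 1701 CPM in controls, and pou5f3 at 1292 and 958.7 CPM against 1099, 1180 and 1370 CPM. sox19b varied more, at 375 and 314 CPM against 422, 532.5 and 188 CPM. SOX2 was near the floor, at 1.12 and 0.867 CPM against 0.254, 0.461 and 1.59 CPM. Transcripts encoded by the mitochondrial genome took 2.533% and 4.253% of the counts with 10 pg and CHX, against 4.307%, 2.41% and 5.571% in controls.

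At 4 hpf, 33 genes were higher and 20 lower in 10 pg with CHX than in controls, which is 0.157% and 0.0949% of the genes tested. Genes are called risen or fallen at a Benjamini-Hochberg adjusted p below 0.05 over all 21075 genes. Among the 33 that rose were 4 Nodal pathway genes (ndr2, ndr1, lft1 and lft2), 4 Fgf ligand genes and 5 endoderm factor genes, together with genes of the organizer and of mesoderm. ndr2 was itself injected, so its level includes the injected mRNA. The libraries of 10 pg with CHX and of controls did not overlap in any of the 53 called genes. Such separation was not rare, since the libraries with CHX lay above all controls in 8.76% of all genes tested and below them in 10.3%, and nothing is read from it for genes chosen by their p. The median log2 change of the risen genes was 5.29, with a range of 0.87 to 8.61, and 31 of them changed by over 2 log2 units. The fallen genes changed less, with a median of -1.39, and 8 of the 20 passed 2 log2 units. Without adjustment, p was below 0.05 for 626 higher and 967 lower genes, and the median change over all genes was -0.05.

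**Figure D1:**
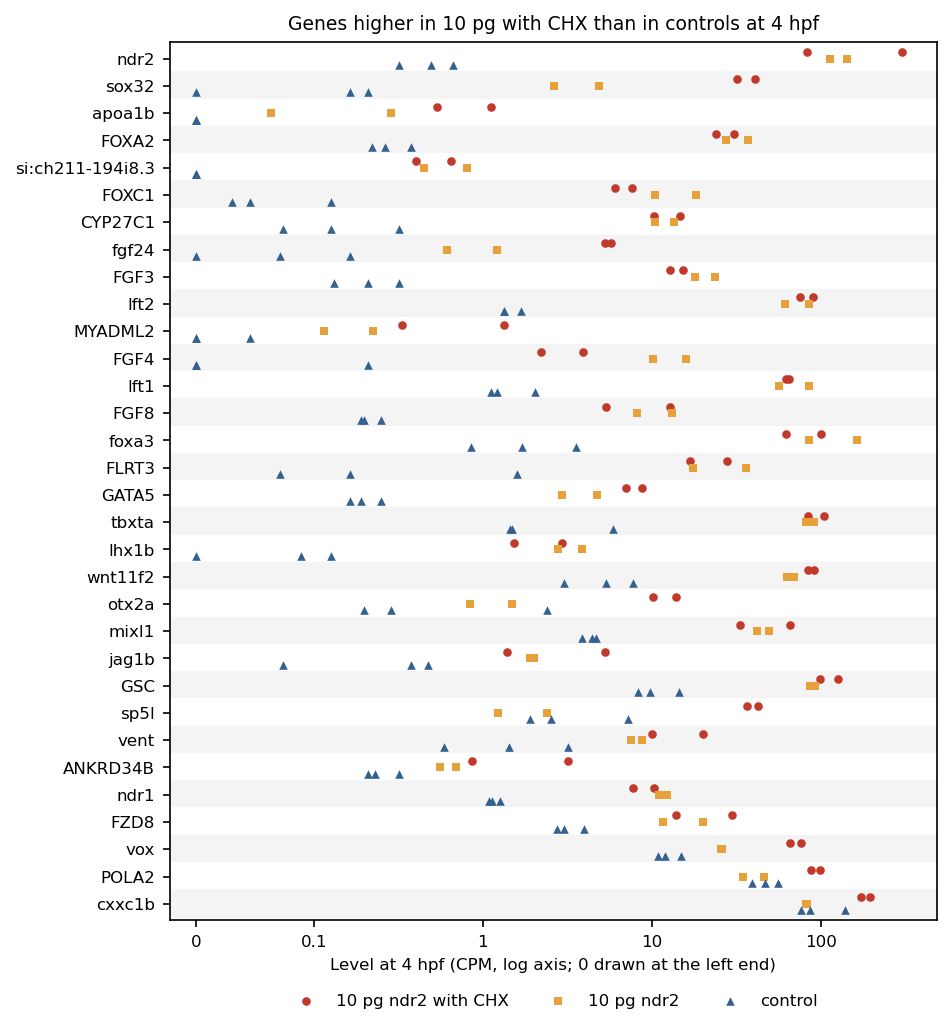
Levels in CPM on a log axis of 32 of the 33 genes that were higher in 10 pg with CHX than in controls at 4 hpf, 1 point per library. The 10 pg libraries without CHX are drawn on the middle line of each row, whatever their level. All 10 pg with CHX points lie to the right of all control points in every row, and in sox32, fgf24, otx2a and sp5l the 10 pg points lie well to the left of the 10 pg with CHX points.

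ndr2 itself had 301 and 82.7 CPM in 10 pg with CHX, 142 and 114 CPM with 10 pg alone, and 0.317, 0.494 and 0.67 CPM in controls. The change against controls was 8.61 ± 0.65 log2 units (standard error; adjusted p = 1.42e-10). The 10 pg with CHX libraries differed in ndr2 more than the 10 pg libraries did, and injected and endogenous ndr2 transcripts cannot be separated in these counts.

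Of the 6 Nodal ligand and feedback inhibitor genes tested, 4 rose and 0 fell. The list median was 4.20 log2 units beside -0.05 over all genes. Both the count and the median include ndr2, which was itself injected. lft1, which encodes a secreted Nodal antagonist, had 62.3 and 65.3 CPM with 10 pg and CHX, 85.1 and 56.8 CPM with 10 pg, and 1.21, 1.12 and 2.05 CPM in controls, a rise of 5.46 ± 0.67 (adjusted p = 1.13e-05). Its paralog lft2 had 89.6 and 75.9 CPM with 10 pg and CHX, 85.4 and 61.4 CPM with 10 pg, and 1.33, 1.68 and 1.34 CPM in controls, a rise of 5.83 ± 0.61 (adjusted p = 2.09e-07). For both Lefty genes the ranges with and without CHX overlapped, and every injected library lay far above the highest control. The other Nodal ligand gene of the blastula, ndr1, had 7.7 and 10.3 CPM with 10 pg and CHX, 11.1 and 12.2 CPM with 10 pg, and 1.27, 1.09 and 1.13 CPM in controls, a rise of 2.94 ± 0.61 (adjusted p = 0.0181). The ndr1 call was lost in 5 of 17 alternative analyses, among them each one that left out a control. The 2 members without a call were spaw, the left-right Nodal ligand, at 0.9 and 0.33 CPM against 0.19, 0.33 and 0.33 CPM, and gdf3, the maternal partner that Nodal ligands pair with, at 307 and 534 CPM against 730, 646 and 545 CPM.

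None of 16 Nodal receptor and transducer genes was called (edgeR; list median 0.01). Over all genes tested 0.157% were called higher and 0.0949% lower, so 0 calls among 16 is near the share of all genes. The co-receptor gene tdgf1 had 106 and 159 CPM in 10 pg with CHX and 146, 94.6 and 135 CPM in controls. foxh1 had 237 and 257 CPM against 315, 274 and 324 CPM (adjusted p = 0.93). Its libraries with CHX lay below all controls, as in 10.3% of all genes tested. EOMES (ENSDARG00000006640, 1 of 2 genes that carry this symbol) had 145 and 117 CPM against 114, 140.0 and 142 CPM, and SMAD2 had 217 and 145 CPM against 141, 190 and 109 CPM. Transcripts of the receiving side were measured in all 5 libraries, at levels that overlapped between the groups in tdgf1, EOMES and SMAD2.

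Of 12 endoderm factor genes tested, 5 rose and 0 fell (list median 3.35). sox32, the Sox factor that fish endoderm requires, had 40.9 and 32.1 CPM in 10 pg with CHX, 4.87 and 2.65 CPM with 10 pg, and 0, 0.165 and 0.209 CPM in controls. sox32 rose by 8.19 ± 1.17 log2 units over controls (adjusted p = 0.000156), next in size to ndr2. Its level with CHX was above both 10 pg libraries, but the sox32 difference of 3.28 ± 1.06 between the treatments was not called (adjusted p = 0.172). FOXA2, a forkhead factor of endoderm and axial mesoderm, had 30.7 and 24.1 CPM in 10 pg with CHX, 37.0 and 27.4 CPM with 10 pg, and 0.222, 0.263 and 0.377 CPM in controls, a rise of 6.57 ± 0.94 (adjusted p = 0.000156). The related foxa3 had 101 and 62.5 CPM in 10 pg with CHX, 165 and 85.2 CPM with 10 pg, and 0.857, 1.71 and 3.56 CPM in controls, a rise of 5.34 ± 0.88 (adjusted p = 0.00115). Both forkhead genes showed the same order of magnitude with and without CHX, with overlapping libraries. GATA5, a zinc finger factor of endoderm and heart, had 8.82 and 7.07 CPM in 10 pg with CHX, 4.75 and 2.93 CPM with 10 pg, and 0.19, 0.165 and 0.251 CPM in controls, a rise of 5.27 ± 1.02 (adjusted p = 0.00957). mixl1, a homeobox factor that acts with Smads, had 66.2 and 33.3 CPM in 10 pg with CHX, 49.2 and 42 CPM with 10 pg, and 3.87, 4.44 and 4.69 CPM in controls, a rise of 3.52 ± 0.70 (adjusted p = 0.0132). The mixl1 call was lost in 5 of 17 alternatives and the GATA5 call in 3.

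The 7 endoderm genes without a call included members with few counts at this age. OSR1, a zinc finger factor, had 7.1 and 2.47 CPM in 10 pg with CHX against 0.22, 0.13 and 0.42 CPM in controls (4.23 log2 units, adjusted p = 0.0564). sebox, a homeobox gene, had 0.65 and 0.6 CPM with CHX, 7.44 and 8.45 CPM with 10 pg alone, and 0.19, 0.03 and 0.38 CPM in controls. sebox was thus the endoderm gene in which the 10 pg libraries lay furthest above those with CHX, yet the difference between the treatments was not called (-3.66 log2 units, adjusted p = 0.1). SOX17, the later endoderm marker, stood at 0.17 and 0.27 CPM with CHX and at 0.03, 0 and 0.67 CPM in controls, so a change was not detectable at this depth. GATA6 had 1.42 and 3.53 CPM with CHX against 0.51, 0.53 and 1.21 CPM in controls (adjusted p = 0.62), and foxa had 127 and 179 CPM against 172, 135 and 202 CPM.

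Of 8 genes in the prechordal plate and organizer list, 2 rose and 0 fell. GSC, the organizer homeobox gene goosecoid, had 127 and 98.7 CPM in 10 pg with CHX, 86.1 and 92.1 CPM with 10 pg, and 9.8, 8.33 and 14.4 CPM in controls, a rise of 3.38 ± 0.67 (adjusted p = 0.0132). The GSC call was lost in 3 of 17 alternatives, without control replicate 1, without control replicate 2 and with the replicate block within each age. otx2a, an anterior homeobox gene, had 13.9 and 10.2 CPM in 10 pg with CHX, 0.839 and 1.5 CPM with 10 pg, and 0.286, 0.197 and 2.39 CPM in controls, a rise of 3.72 ± 0.79 (adjusted p = 0.0242). The 10 pg libraries lay within the range of the controls in otx2a, and its call was lost in 9 of 17 alternatives. lhx1b, a LIM homeobox gene outside the list, also rose by 4.89 ± 0.91 (adjusted p = 0.00574), to 2.92 and 1.53 CPM against 0.127, 0 and 0.0837 CPM in controls, while its paralog lhx1a was not called at 22.4 and 14.7 CPM against 9.27, 11.8 and 8.92 CPM.

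Of 8 notochord and panmesoderm factors, 1 rose. That was tbxta, the T-box gene known as brachyury or no tail, with 105 and 84.7 CPM in 10 pg with CHX, 91.6 and 81.4 CPM with 10 pg, and 1.49, 1.45 and 5.9 CPM in controls (5.03 ± 0.93, adjusted p = 0.00637). Its call was lost without control replicate 1 and with the replicate block within each age. noto, which acts in the notochord, had 83.8 and 70.6 CPM in 10 pg with CHX against 6.7, 10.9 and 30.9 CPM in controls and was not called (2.26 log2 units, adjusted p = 0.21). chrd, the secreted Bmp antagonist chordin and a member of the organizer list, had 58.5 and 45.9 CPM in 10 pg with CHX against 3.17, 3.06 and 23.6 CPM in controls and was not called either (2.41 log2 units, adjusted p = 0.24). In noto, chrd, otx2a and tbxta control replicate 3 lay above the other controls. tbx16, a T-box gene of paraxial mesoderm, had 58.5 and 44.3 CPM with CHX, 238 and 123 CPM with 10 pg, and 32.9, 17.7 and 51.2 CPM in controls, with no call in either contrast.

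Among ventrolateral and paraxial mesoderm genes, 3 of 18 rose and 0 fell, and the list median was 0.08. FOXC1, a forkhead gene of paraxial mesoderm, had 7.61 and 6.07 CPM in 10 pg with CHX, 18.2 and 10.5 CPM with 10 pg, and 0.127, 0.0329 and 0.0419 CPM in controls, a rise of 6.51 ± 0.98 (adjusted p = 0.000279). For FOXC1 each 10 pg library was above each library with CHX, and the difference was not called (adjusted p = 0.751). Another of the 3 was vent, described below with its partner vox.

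Of 15 Fgf pathway genes tested, 4 rose, all of them ligand genes, and 0 fell (list median 0.47). Fgf ligands relay Nodal signals in mesoderm. FGF3 had 15.2 and 12.8 CPM in 10 pg with CHX, 18.1 and 23.6 CPM with 10 pg, and 0.317, 0.132 and 0.209 CPM in controls, a rise of 5.95 ± 0.90 (adjusted p = 0.000299). FGF8 (ENSDARG00000003399, 1 of 2 genes that carry this symbol) had 12.8 and 5.33 CPM in 10 pg with CHX, 13.2 and 8.17 CPM with 10 pg, and 0.19, 0.197 and 0.251 CPM in controls, a rise of 5.39 ± 0.84 (adjusted p = 0.000485). FGF4 had 3.91 and 2.2 CPM in 10 pg with CHX, 10.1 and 16 CPM with 10 pg, and 0, 0 and 0.209 CPM in controls, a rise of 5.53 ± 1.18 (adjusted p = 0.0252). fgf24 showed the other order, with 5.72 and 5.27 CPM in 10 pg with CHX, 0.615 and 1.21 CPM with 10 pg, and 0.0635, 0.165 and 0 CPM in controls, a rise of 6.00 ± 0.80 (adjusted p = 3.14e-05). The fgf24 difference between the treatments, 2.59 ± 0.74, was not called (adjusted p = 0.113), and the FGF4 call against controls was lost in 8 of 17 alternatives. The genes that report Fgf signaling were not called: DUSP6 had 71.0 and 47.9 CPM in 10 pg with CHX against 39.3, 33.4 and 56.4 CPM in controls, and SPRY4 had 1.16 and 1.33 CPM against 2.98, 1.55 and 5.27 CPM. FLRT3, a membrane protein that binds Fgf receptors and modulates adhesion, rose by 5.29 ± 0.84 (adjusted p = 0.000794), with 27.9 and 16.9 CPM in 10 pg with CHX, 36.1 and 17.7 CPM with 10 pg, and 0.0635, 0.165 and 1.59 CPM in controls.

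Wnt and Bmp pathway lists each held 2 risen genes, of 11 and 16 tested, and 0 fallen ones. wnt11f2, a Wnt ligand of gastrulation movements, had 91.4 and 84.4 CPM in 10 pg with CHX, 63.0 and 69.2 CPM with 10 pg, and 5.39, 3.03 and 7.7 CPM in controls, a rise of 4.04 ± 0.66 (adjusted p = 0.00113). sp5l, a zinc finger gene downstream of Wnt, had 42.7 and 36.9 CPM in 10 pg with CHX, 1.23 and 2.42 CPM with 10 pg, and 1.9, 2.53 and 7.2 CPM in controls, a rise of 3.37 ± 0.73 (adjusted p = 0.0281). The 10 pg libraries of sp5l lay at the level of the controls, and its difference between the treatments was called (4.45 ± 0.92, adjusted p = 0.0194). The same libraries with CHX enter both contrasts of sp5l, so its calls are not separate support. The rise over controls was lost in 10 of 17 alternatives, among them leaving out either library with CHX or control replicate 1 or 2. The difference from 10 pg was lost in 6 of 15, among them leaving out replicate 1 of 10 pg with CHX or either 10 pg library, and it was 0.43 log2 units with the shared column counted as 10 pg. The homeobox repressors vox and vent, which restrict organizer genes to the dorsal side, were the risen members of the Bmp list. vox had 65.5 and 76.5 CPM in 10 pg with CHX, 25.6 and 26.2 CPM with 10 pg, and 15, 11.0 and 12 CPM in controls, a rise of 2.49 ± 0.43 (adjusted p = 0.00251). vent had 20.2 and 10.0 CPM in 10 pg with CHX, 7.5 and 8.74 CPM with 10 pg, and 1.43, 0.592 and 3.18 CPM in controls, a rise of 3.15 ± 0.63 (adjusted p = 0.0132). In both, the order of the groups was 10 pg with CHX, then 10 pg, then controls, without overlap, but neither gene was called against 10 pg. Libraries with CHX lay above all controls in 8.76% of all genes tested, and nothing is read from the order for genes chosen by their rise. The vox call held in all 17 alternatives, and the vent call was lost in 7, among them leaving out replicate 1 of 10 pg with CHX and control replicate 1 or 2. szl, a secreted inhibitor of chordin-cleaving proteases, had 6.5 and 3.0 CPM in 10 pg with CHX against 0.0317, 0.0987 and 0 CPM in controls and was not called (adjusted p = 0.14).

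The remaining risen genes lay outside these lists or at low levels. CYP27C1, an enzyme that converts vitamin A1 to A2, had 14.6 and 10.3 CPM in 10 pg with CHX, 13.5 and 10.5 CPM with 10 pg, and 0.317, 0.0658 and 0.126 CPM in controls, a rise of 6.12 ± 1.00 (adjusted p = 0.00113). FZD8, a Frizzled receptor gene whose symbol 2 genes share, had 30.02 and 14 CPM in 10 pg with CHX against 3.97, 3.03 and 2.76 CPM in controls, and jag1b, a Notch ligand gene, had 5.29 and 1.4 CPM against 0.476, 0.0658 and 0.377 CPM. apoa1b, an apolipoprotein gene of the yolk syncytial layer, had 0 counts in the controls and was at least 25.4-fold higher, taking 3 counts over the group as the floor, at 1.12 and 0.533 CPM. Further low genes were si:ch211-194i8.3, at least 15.7-fold higher than 0 control counts, and MYADML2, with 36 counts against 1 (ratio 80.8, 95% counting interval 13.6 to 3.28e+03). Such bounds and intervals cover counting error only. ANKRD34B, an ankyrin repeat gene, rose by 2.99 ± 0.65, with 3.18 and 0.867 CPM against 0.317, 0.23 and 0.209 CPM. The calls were lost in 5 of 17 alternatives for FZD8, 6 for apoa1b, 7 for ANKRD34B, 8 for jag1b and 8 of 16 for MYADML2.

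POLA2 and cxxc1b stood apart by a small change at a high level. POLA2, a subunit of DNA polymerase alpha, had 98.6 and 87.7 CPM in 10 pg with CHX, 46.1 and 34.5 CPM with 10 pg, and 47.0, 56.2 and 39.3 CPM in controls, a rise of 0.97 ± 0.21 (adjusted p = 0.0296). cxxc1b, whose protein binds unmethylated CpG in a histone methyltransferase complex, had 173 and 197 CPM in 10 pg with CHX, 83.2 and 81.5 CPM with 10 pg, and 86.2, 140 and 76.6 CPM in controls, a rise of 0.87 ± 0.20 (adjusted p = 0.0391). In both, the 10 pg libraries lay near the controls, and the difference from 10 pg was called (1.21 ± 0.24, adjusted p = 0.014, for POLA2, and 1.17 ± 0.22, adjusted p = 0.0124, for cxxc1b). The same libraries with CHX enter both contrasts, so for POLA2 and cxxc1b the calls are not separate support. Their calls against controls were lost in 10 and 11 of the 17 alternatives.

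Of the 20 genes that fell, 1 stood in any list used here. The lists were chosen with earlier results of these data known. The share of all tested genes in any list was not counted, so nothing is read from this number. histh1l1, a linker histone gene, had 0.903 and 0.667 CPM in 10 pg with CHX, 33.7 and 42.2 CPM with 10 pg, and 22, 7.83 and 38.7 CPM in controls, a fall of -4.82 ± 0.63 log2 units (adjusted p = 3.14e-05). lye, a surface protein gene of the enveloping layer, had 0.387 and 1.13 CPM in 10 pg with CHX, 44.5 and 47.2 CPM with 10 pg, and 18, 7.01 and 17.2 CPM in controls, a fall of -4.29 ± 0.85 (adjusted p = 0.0132). STRADA, a pseudokinase that in human cells activates the kinase LKB1, had 11.4 and 11.0 CPM in 10 pg with CHX, 78.5 and 50.5 CPM with 10 pg, and 45.6, 47.4 and 53.5 CPM in controls, a fall of -2.13 ± 0.22 (adjusted p = 1.94e-07). In all 3, the libraries with CHX lay below both other groups, and the difference from 10 pg was called (adjusted p = 1.18e-05, 0.00102 and 2.16e-08). The same libraries with CHX enter both contrasts, so the calls against 10 pg are not separate support. With the shared column counted as 10 pg, all 3 differences from 10 pg lost their call. STRADA was the single fallen gene called against controls in every alternative tried. The fall of lye against controls was lost in 6 of 17, among them leaving out either library with CHX, and that of histh1l1 in 1.

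**Figure D2:**
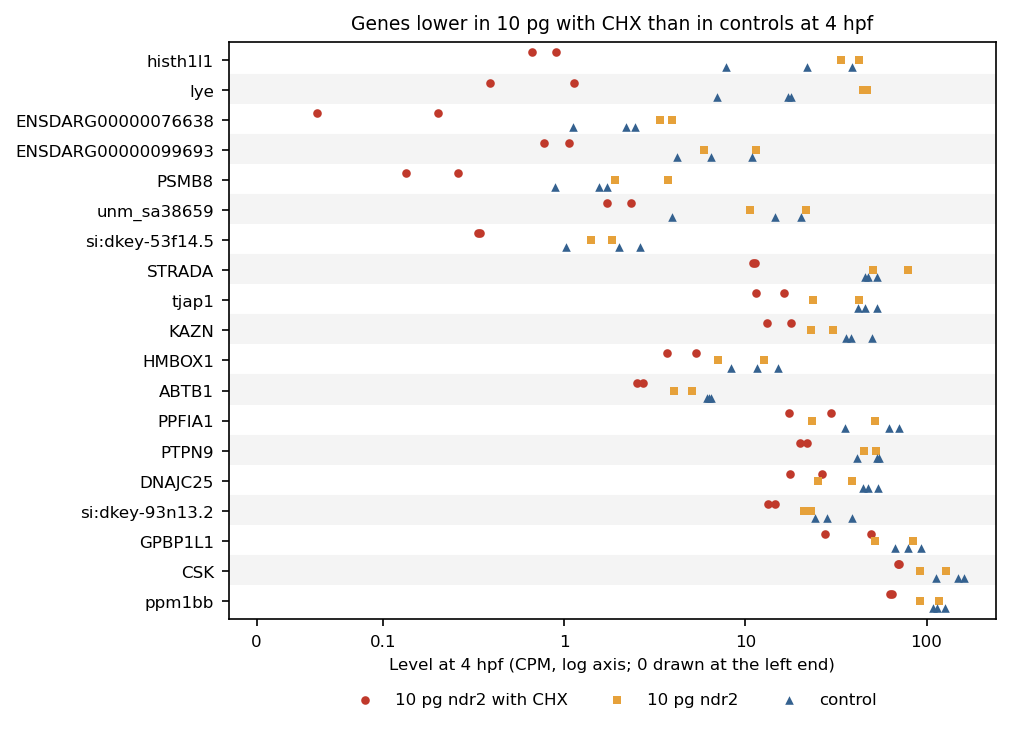
Levels in CPM on a log axis of 19 of the 20 genes that were lower in 10 pg with CHX than in controls at 4 hpf, 1 point per library. Points of 10 pg alone are drawn on the middle line of each row, whatever their level. The 10 pg with CHX points lie to the left of the control points in every row, with histh1l1 and lye furthest apart.

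Some other falls were smaller and at moderate levels, and some were large but at low levels. unm_sa38659 had 1.72 and 2.33 CPM in 10 pg with CHX against 14.6, 3.95 and 20.3 CPM in controls. ENSDARG00000099693 had 0.774 and 1.07 CPM against 6.44, 4.21 and 10.9 CPM. Both calls were lost in 11 of 17 alternatives. ENSDARG00000076638 had 0.043 and 0.2 CPM against 2.19, 1.12 and 2.47 CPM, and its call was lost in 8. tjap1, which encodes a tight junction protein, had 16.4 and 11.5 CPM in 10 pg with CHX against 41.8, 45.7 and 53.5 CPM in controls (-1.75 ± 0.35, adjusted p = 0.0115). KAZN, a gene of desmosome-associated kazrin whose symbol 2 genes share, had 17.9 and 13.2 CPM against 38.3, 50.0 and 35.7 CPM (-1.41 ± 0.24, adjusted p = 0.00154). PTPN9, a tyrosine phosphatase gene, had 20.1 and 21.9 CPM against 41.3, 54.7 and 53.3 CPM (-1.24 ± 0.27, adjusted p = 0.0232). CSK, the kinase that inhibits Src, had 70.5 and 70.0 CPM in 10 pg with CHX against 113 CPM at the lowest control, a change of -1.01 ± 0.21 (adjusted p = 0.0152). The co-chaperone gene DNAJC25 changed by -1.14 ± 0.21 and the phosphatase gene ppm1bb by -0.87 ± 0.18. PSMB8, an immunoproteasome subunit gene, was at 0.258 and 0.133 CPM against 1.55, 0.889 and 1.72 CPM, so its fall rests on few counts. The calls were lost in 3 of 17 alternatives for tjap1 and KAZN, 5 for DNAJC25, 8 for CSK and ppm1bb, 9 for PTPN9 and 10 for PSMB8.

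How many fell depended on single libraries. Without replicate 1 of 10 pg with CHX, where a lone library stands for that group and is assumed to vary like the others, 110 genes fell, and without replicate 2 only 4 did. Leaving out control replicate 1, 2 or 3 gave 13, 35 or 12 fallen genes, of which 11, 14 and 9 were among the 20. The same omissions gave 19, 23 or 34 risen genes, of which 16, 20 and 24 were among the 33. Leaving out a library with CHX also changed which genes were called, in both directions. With DESeq2 in place of edgeR 85 genes were higher and 101 lower, and all 33 risen genes were among the 85. With the shared column counted as a further library of 10 pg with CHX, 94 rose and 86 fell, again with all 33 among those that rose. Across 17 alternatives, 14 of the risen genes were called in every one, among them ndr2, sox32, lft1, lft2, FOXA2, foxa3, FOXC1, CYP27C1, FGF3, FGF8, fgf24, wnt11f2 and vox.

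Beside the contrast with controls, the difference between 10 pg with CHX and 10 pg alone was tested directly (n = 2 each). In it 40 genes were higher and 77 lower with CHX, 0.19% and 0.365% of those tested. The genes lower with CHX included keratins and claudins of the enveloping layer, the thin outer epithelium of the blastula. krt4 had 1.08 and 1.0 CPM in 10 pg with CHX, 79.8 and 54.4 CPM with 10 pg, and 10.6, 6.88 and 29.2 CPM in controls (-6.00 ± 1.00 against 10 pg, adjusted p = 0.00326). krt92 had 0 counts with CHX and 4.98 and 6.15 CPM with 10 pg, at least 70.9-fold lower (adjusted p = 0.0227), and cldnb, a claudin gene, had 0.516 and 0.2 CPM against 12.7 and 9.72 CPM (-4.85 ± 1.02, adjusted p = 0.0202). krt18a.1, a keratin gene, had 13.2 and 17.1 CPM in 10 pg with CHX, 249.9 and 269 CPM with 10 pg, and 33.3, 32.8 and 78.4 CPM in controls (-4.10 ± 0.79, adjusted p = 0.014). Against controls, krt4 (adjusted p = 0.0611), krt92 (adjusted p = 0.252), cldnb (adjusted p = 0.368) and krt18a.1 (adjusted p = 0.492) were not called. Both libraries with CHX lay below all controls in each of these genes, as in 10.3% of all genes tested. The genes were named for low values in these same libraries, so nothing is read from that order. The differences from 10 pg were lost in 3 of 15 alternatives for krt4 and 6 for krt92 and cldnb.

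Of the 23 enveloping layer genes tested, 7 were lower and 0 higher with CHX than with 10 pg, and 1 was lower than in controls. The list median was -2.55 log2 units against 10 pg and -1.67 against controls, beside 0.00 and -0.05 over all genes. The summed level of the list was 474 to 580.7 CPM in 10 pg with CHX, 922.4 to 1153 CPM with 10 pg and 461.3 to 764 CPM in controls, so the sums with CHX lay within the lower part of the control range. With CHX a large part of these sums was klf17 and grhl3, given below, so they say little of the keratin and claudin genes. Of 24 members in the list, 5 were at 0 in both libraries with CHX, among them krt92 and cyt1, beside 3 with 10 pg and 1 in controls. agr1 was at 0 in each of these groups, and cyt1l, at 0 with CHX, had only 6 counts in controls. The libraries with CHX held fewer counts than the controls, so zeros are more likely in them. The transcription factor genes of the layer were not called: grhl3 had 91.3 and 87.6 CPM in 10 pg with CHX against 134, 88.0 and 138 CPM in controls, and klf17 had 210 and 190 CPM against 248, 157 and 196 CPM. In bulk RNA, fewer cells of a type and less RNA per cell cannot be told apart.

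**Figure D3:**
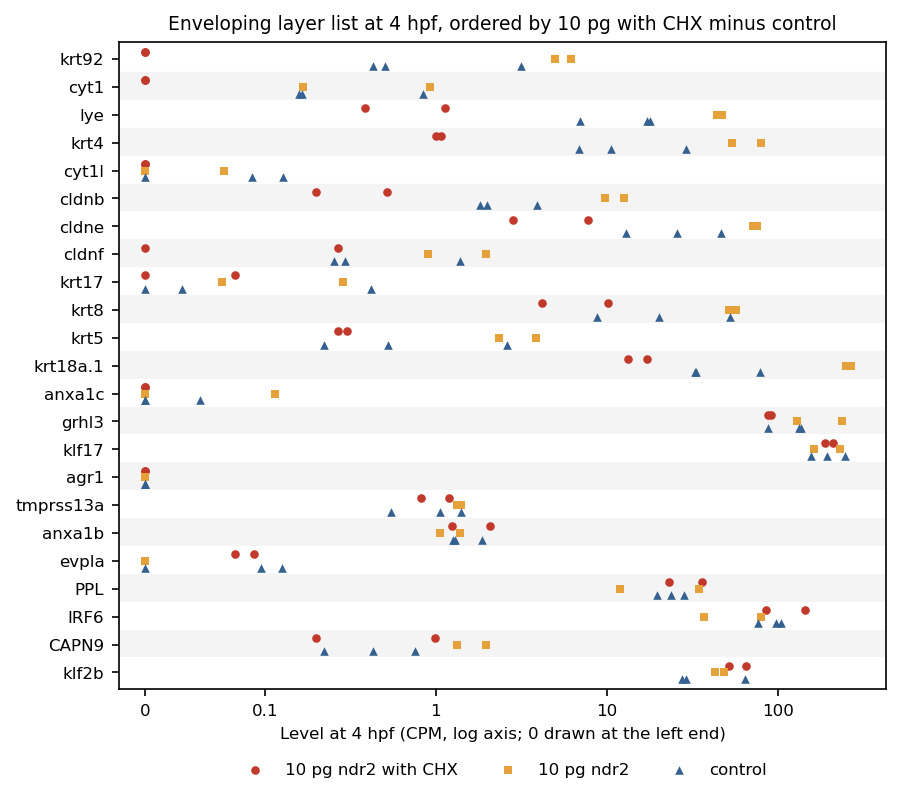
Levels in CPM on a log axis of the 23 enveloping layer genes tested, at 4 hpf, 1 point per library, ordered by the change of 10 pg with CHX against controls. In krt92, lye, krt4, cldnb, cldne and krt18a.1 the 10 pg with CHX points lie left of all control points and the 10 pg points right of them, while in klf17 and klf2b the 10 pg with CHX and control points overlap.

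Outside the enveloping layer, TAGLN, an actin-binding protein gene whose symbol 2 genes share, had 0.774 and 2.0 CPM in 10 pg with CHX, 33.1 and 39.7 CPM with 10 pg, and 0.984, 0.823 and 2.68 CPM in controls (-4.77 ± 0.77 against 10 pg, adjusted p = 0.00215). TAGLN was high in 10 pg alone, and the CHX libraries overlapped the controls. aplnra, an apelin receptor gene of mesendoderm migration, had 2.15 and 1.53 CPM in 10 pg with CHX, 47.1 and 21.8 CPM with 10 pg, and 5.9, 3.69 and 14.3 CPM in controls (-4.20 ± 0.62, adjusted p = 0.000747). TAGLN and aplnra were lower with CHX than in either 10 pg library. Higher with CHX was kdm4ab, a histone demethylase gene, at 246 and 139 CPM in 10 pg with CHX, 61.3 and 31.2 CPM with 10 pg, and 84.9, 169 and 57.2 CPM in controls (2.06 ± 0.39 against 10 pg, adjusted p = 0.0124). These counts are the least stable of the results: with the shared column counted as 10 pg, 0 genes were called in either direction (edgeR).

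Of the 33 genes risen against controls, 19 were also called higher with 10 pg alone against the same controls, where 29 genes in all were higher (0.138%) and 2 lower (0.00949%). Because the controls are shared, these counts are not independent of each other. In the direct contrast of the treatments, 3 of the 33 were called higher with CHX (sp5l, POLA2 and cxxc1b) and 0 lower, beside 0.19% and 0.365% of all genes. The libraries with CHX that chose the 33 also enter this contrast, so its counts only describe the chosen genes. The 14 without a call under 10 pg alone included sox32 (4.91 ± 1.11 against controls, adjusted p = 0.0611), fgf24 (3.41 ± 0.86, adjusted p = 0.116), GATA5 (4.23 ± 1.01, adjusted p = 0.0865) and vox (1.04 ± 0.43, adjusted p = 0.499). The change under 10 pg alone was 0.35 ± 0.90 for otx2a (adjusted p = 0.961) and -1.07 ± 0.83 for sp5l (adjusted p = 0.783).

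Libraries of 6 hpf share no library with the contrast at 4 hpf and give a separate view of the same genes. With 10 pg against control at 6 hpf, 100 genes were higher (0.474%) and 0 lower (edgeR; p before adjustment was below 0.05 for 368 higher and 208 lower genes). Of those 100, 21 rose with 10 pg and CHX at 4 hpf (21.0%), beside 0.157% of all genes tested, and 0 fell, beside 0.0949%. The 21 are 63.6% of the 33, and ndr2, itself injected, is among them. At 4 hpf 82 of the 100 had a positive change with 10 pg and CHX. Their median was 1.15 log2 units beside -0.05 over all genes. The share of positive changes over all genes was not counted. The 12 risen genes outside the 6 hpf list were jag1b, POLA2, cxxc1b, otx2a, MYADML2, ANKRD34B, FLRT3, FOXC1, vox, vent, apoa1b and sp5l.

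Most of the genes that rose at 4 hpf were also higher in the later libraries with CHX, where far more of the transcriptome had changed. At 5 hpf, 25 of the 33 were higher, 2 lower and 6 not called against the control of that age, where 24.1% of all genes were higher and 24.6% lower. At 6 hpf the numbers were again 25, 2 and 6, beside 28.4% higher and 26.4% lower. The median size of change over all genes was 0.31 log2 units at 4 hpf, 1.03 at 5 hpf and 1.18 at 6 hpf. Of the 20 genes that fell at 4 hpf, 12 were lower and 2 higher at 5 hpf, and 12 lower and 3 higher at 6 hpf.

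**Figure D4:**
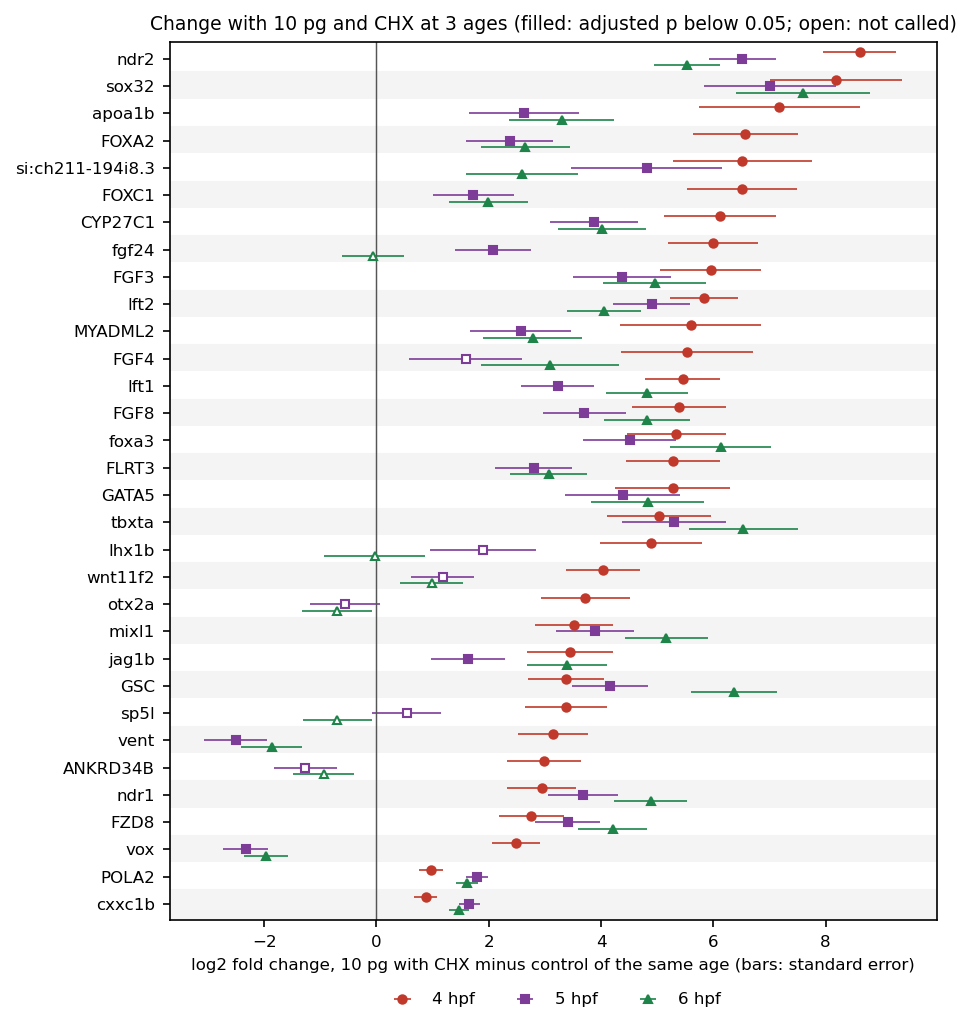
Log2 fold change, 10 pg with CHX minus control of the same age, for 32 of the 33 genes risen at 4 hpf, shown at 4, 5 and 6 hpf with standard errors; filled symbols have an adjusted p below 0.05. The Lefty genes, sox32, foxa3 and tbxta stay to the right at all 3 ages, and vox and vent lie to the left of 0 at 5 and 6 hpf.

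Whether the effect at 6 hpf differed from that at 4 hpf was tested for every gene, and 33.2% of all genes differed. Of the 33 risen genes, 11 had a smaller and 1 a larger effect at 6 hpf. Over all genes tested, 14.1% had a lower and 19.1% a higher effect. The median over all genes was 0.20 log2 units. The 4 hpf values that chose the 33 genes also enter this difference with the opposite sign, so these counts describe the chosen genes and are not compared with the shares of all genes. The larger one was GSC, at 6.37 ± 0.77 log2 units at 6 hpf against 3.38 ± 0.67 at 4 hpf (difference 2.99 ± 0.97, adjusted p = 0.017). Its control level fell with age, at 10.9 ± 3.19, 2.56 ± 1.82 and 0.809 ± 0.681 CPM at 4, 5 and 6 hpf (SD, n = 3), while 10 pg with CHX had 113 ± 19.7 (n = 2), 46.4 ± 43 and 66.4 ± 38.0 CPM (n = 3).

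The smaller effects lay in genes whose control level was higher at the later ages, among others. vox had 71.0 ± 7.79, 52.6 ± 30.2 and 96.1 ± 47.2 CPM with 10 pg and CHX at 4, 5 and 6 hpf, and 12.6 ± 2.09, 263 ± 146 and 377 ± 29.5 CPM in controls (SD, n = 2 for CHX at 4 hpf and 3 elsewhere). Its effect was 2.49 ± 0.43 at 4 hpf, -2.32 ± 0.40 at 5 hpf and -1.97 ± 0.40 at 6 hpf, a turn of direction with a difference of -4.46 ± 0.59 (adjusted p = 1.43e-06). vent followed the same course, with 15.1 ± 7.22, 10.3 ± 4.16 and 20.6 ± 12.6 CPM with CHX and 1.73 ± 1.32, 58.6 ± 41.3 and 75.3 ± 17.1 CPM in controls. otx2a had 12.1 ± 2.64, 37.4 ± 40.2 and 68.4 ± 34.5 CPM with 10 pg and CHX, and 0.956 ± 1.24, 55.4 ± 29.7 and 111 ± 21.6 CPM in controls. sp5l had 39.8 ± 4.13, 73.2 ± 52.5 and 152 ± 61.1 CPM against 3.88 ± 2.89, 50.4 ± 35.3 and 246 ± 20.2 CPM. In otx2a and sp5l both groups were higher at 6 hpf than at 4 hpf, and the libraries with CHX had the higher mean at 4 hpf and the lower one at 6 hpf.

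fgf24 and lhx1b also had a smaller effect at 6 hpf. The fgf24 control level was higher at that age too, while that of lhx1b stayed low and its level with CHX was lower. fgf24 had 5.49 ± 0.321, 1.29 ± 1.07 and 3.42 ± 3.04 CPM with 10 pg and CHX, 0.911 ± 0.419, 14.4 ± 3.87 and 33.0 ± 8.06 CPM with 10 pg, and 0.076 ± 0.083, 0.305 ± 0.125 and 3.57 ± 0.686 CPM in controls. lhx1b had 2.23 ± 0.984, 0.304 ± 0.0833 and 0.165 ± 0.134 CPM with 10 pg and CHX, 3.32 ± 0.747, 1.94 ± 0.575 and 8.5 ± 2.6 CPM with 10 pg, and 0.0702 ± 0.0645, 0.0817 ± 0.0722 and 0.168 ± 0.0323 CPM in controls. At 6 hpf the libraries with CHX were at the control level in both genes, while those with 10 pg alone were well above it.

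sox32, foxa3 and the Lefty genes kept a called rise at all 3 ages. sox32 had 36.5 ± 6.22, 10.1 ± 6.67 and 17.5 ± 15.5 CPM with 10 pg and CHX, 3.76 ± 1.57, 1.24 ± 1.02 and 8.52 ± 3.93 CPM with 10 pg, and at most 0.125 ± 0.11 CPM in controls. lft2 had 82.7 ± 9.62, 4.07 ± 0.956 and 3.19 ± 1.55 CPM with 10 pg and CHX, and 1.45 ± 0.198, 0.118 ± 0.133 and 0.193 ± 0.215 CPM in controls, so that its level with CHX was far lower at 5 hpf than at 4 hpf while the ratio to controls changed less. tbxta had 95 ± 14.6, 85.2 ± 100.03 and 239.6 ± 108 CPM with 10 pg and CHX, and 2.95 ± 2.56, 2.07 ± 2.70 and 2.61 ± 2.64 CPM in controls.

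**Figure D5:**
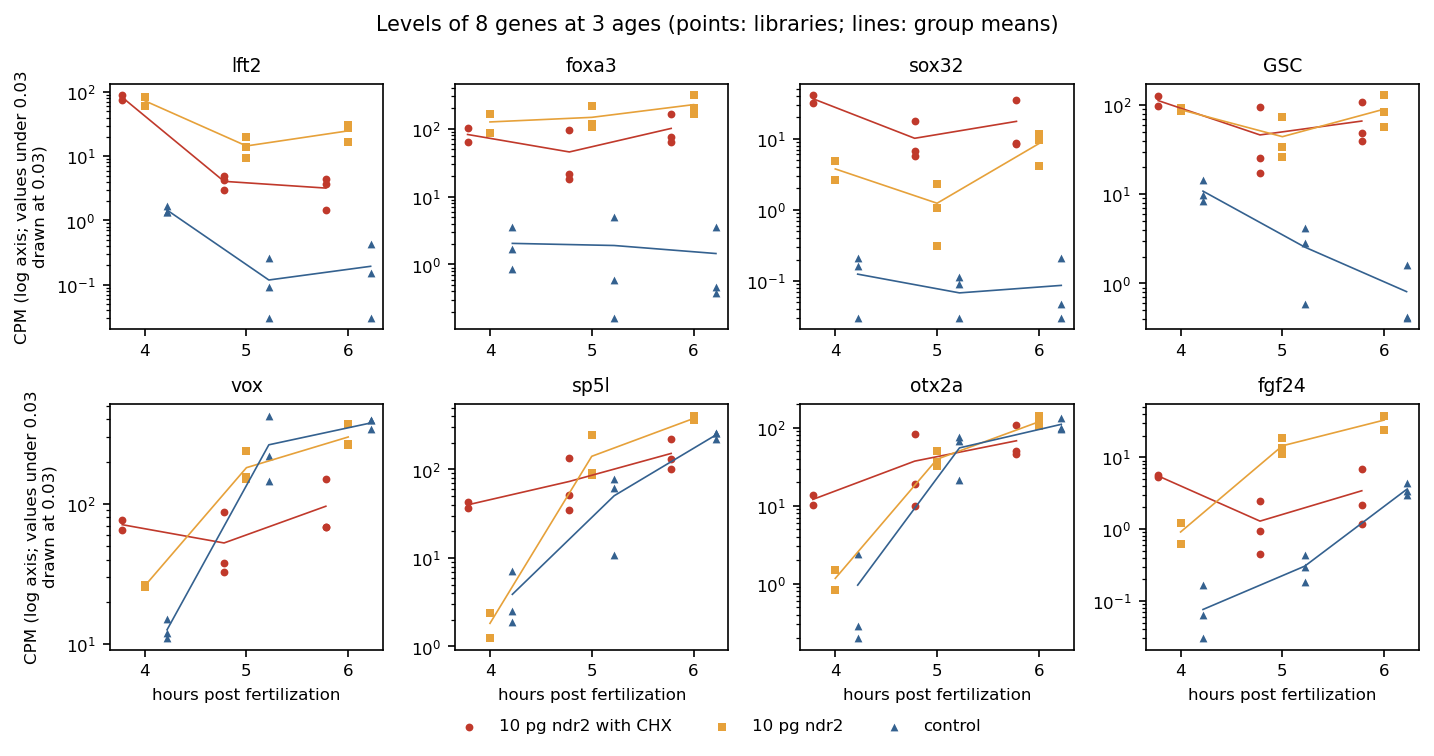
Levels in CPM on log axes of 8 genes at 4, 5 and 6 hpf, 1 point per library and lines through group means, for 10 pg with CHX, 10 pg and control. lft2, foxa3, sox32 and GSC stay above controls with CHX at every age, whereas in vox the control mean passes the CHX mean from 5 hpf on and in fgf24 the CHX and control means meet at 6 hpf.

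Lists for responses to a translation block showed 0 called members at 4 hpf (edgeR), where so few genes were called in all (0.157% higher and 0.0949% lower) that 0 calls in lists of this size is near the share of all genes. None of 29 immediate early and short-lived mRNAs, 17 p53 and stress genes, 15 genes of the integrated stress and unfolded protein response, 14 heat shock genes or 72 ribosomal protein genes was called in either direction against controls. At 5 hpf, where 24.1% of all genes were higher and 24.6% lower, 70 of the 72 ribosomal protein genes, 13 of the 17 p53 and stress genes and 10 of the 14 heat shock genes were lower. The other lists lay nearer the shares of all genes, with 5 higher and 8 lower of the 29 immediate early genes, and 5 higher and 3 lower of the 15 integrated stress genes. Of 20 maternally loaded genes that are later cleared, 0 were called at 4 hpf (median 0.11), and 14 were higher and 1 lower at 5 hpf (median 2.25), beside 24.1% and 24.6% of all genes. Of 22 genes of the earliest zygotic wave, 2 rose at 4 hpf, vox and vent, and 14 were lower at 5 hpf. The 10 primordial germ cell genes had 0 calls at 4 hpf, with summed levels of 2989 to 5247 CPM with 10 pg and CHX against 1970 to 2737 CPM in controls. Their median change was 0.03 log2 units beside -0.05 over all genes, so the higher sum was not shared by the list as a whole. DDX4 had 133.9 and 131 CPM against 128, 146.3 and 147.7 CPM. The yolk syncytial layer list had 3 risen members of 11, apoa1b, GATA5 and ndr1, with summed levels of 1726 to 2070 CPM against 1602 to 2056 CPM. The part of these cell types in the other results was not tested.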

How the data were processed

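Bulk RNA-seq counts per Ensembl gene were taken as deposited by the authors. The submitters' processing notes name STAR, featureCounts, DESeq2 and the build GRCz11. Tool versions, the annotation and the use of strand are not stated there, so overlapping and antisense genes may share reads. The table held 31465 genes in 45 libraries. Groups follow the sample titles. The members and gene lists were chosen with earlier results of these data known.

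The 2 equal columns were left out, and the other 43 libraries of 15 groups entered 1 model in edgeR 4.0.16 under R 4.3.3 (scaling by TMM, robust quasi-likelihood, 1 coefficient per group, filterByExpr with a minimum count of 10 and total of 15, 28 residual degrees of freedom). All groups share 1 estimate of spread. In each of 7 comparisons the Benjamini-Hochberg adjustment ran over all genes tested, with a threshold of 0.05. Standard errors are the log2 change over the root of F. DESeq2 1.42.0 and 16 other settings were alternatives for the main contrast. The fit was tested on simulated data.

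Symbols were matched for 28965 genes. Capitals are the reference's. The 27 lists had 547 entries, of which 476 matched, 62 by a base symbol without the paralog letter, where the paralog is uncertain. Genes were named by a rule: ndr2, the 12 largest rises and falls with at least 5 CPM and separate libraries, up to 4 called members per list, any member of the Nodal, endoderm, prechordal and notochord lists, and the 8 largest each way against 10 pg. Other called genes, and uncalled members of other lists, were chosen after their values were seen. Only 2 same-numbered pairs exist, and the labels give no shared source, so numbers were not taken as pairs. Promoter and protein sequences were not used here. Of the 53 called genes, 2 are not reported here by name.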

Additional observations from a re-analysis of the deposited data

Results flagged for a closer look

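The effect of 10 pg with CHX over control was compared between 6 and 4 hpf, with separate libraries at each age, by the interaction term of the edgeR quasi-likelihood fit. Of the 53 genes called at 4 hpf, 23 had an effect that differed, and over all genes tested 33.2% did. The genes were chosen by their 4 hpf values, which also enter the difference, so their number is a description. Values are the log2 effect at 6 hpf minus that at 4 hpf, with standard errors.

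Among genes risen at 4 hpf, the effect was smaller at 6 hpf for fgf24 (-6.06 ± 0.97, adjusted p = 1.47e-05), vent (-5.01 ± 0.83, adjusted p = 2.5e-05), lhx1b (-4.92 ± 1.32, adjusted p = 0.00394), FOXC1 (-4.52 ± 1.19, adjusted p = 0.00359), vox (-4.46 ± 0.59, adjusted p = 1.43e-06) and otx2a (-4.42 ± 1.00, adjusted p = 0.00096). The same held for sp5l (-4.07 ± 0.95, adjusted p = 0.00127), ANKRD34B (-3.92 ± 0.85, adjusted p = 0.000535), FOXA2 (-3.92 ± 1.2, adjusted p = 0.0115), ndr2 (-3.07 ± 0.82, adjusted p = 0.00403) and wnt11f2 (-3.05 ± 0.84, adjusted p = 0.00545). Without replicate 1 of 10 pg with CHX at 4 hpf, where ndr2 was highest, the ndr2 difference was -1.85 and was not called (adjusted p = 0.0861 by edgeR, the highest of its 21 alternatives, against 0.000273 at the lowest). Of these, vox and vent turned to a called fall at 6 hpf. A larger effect was found for GSC (2.99 ± 0.97, adjusted p = 0.017).

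Among genes fallen at 4 hpf, the effect was lower still at 6 hpf for lye (-5.32 ± 1.14, adjusted p = 0.000551), histh1l1 (-2.46 ± 0.76, adjusted p = 0.0117), unm_sa38659 (-2.08 ± 0.73, adjusted p = 0.0262) and GPBP1L1 (-1.18 ± 0.28, adjusted p = 0.00149). It was higher at 6 hpf for STRADA (0.84 ± 0.27, adjusted p = 0.0167), PTPN9 (1.28 ± 0.35, adjusted p = 0.00439), DNAJC25 (1.34 ± 0.28, adjusted p = 0.000296) and HMBOX1 (1.48 ± 0.41, adjusted p = 0.00519), and for KAZN (1.93 ± 0.32, adjusted p = 1.79e-05), CSK (2.56 ± 0.28, adjusted p = 7.12e-08) and tjap1 (3.01 ± 0.45, adjusted p = 6.19e-06). KAZN, CSK and tjap1 were called higher than controls at 6 hpf. The GPBP1L1 difference was -0.70 without replicate 1 of 10 pg with CHX at 4 hpf and was not called. Under the alternatives, 14 of the 23 differences were called every time, and the one called least often was that of unm_sa38659, lost in 6 of 21 alternatives.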

How the results depend on the processing

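With 33 risen and 20 fallen genes against controls, DESeq2 called 85 and 101, and the shared column counted as 10 pg with CHX gave 94 and 86. Fallen genes numbered 12 with libraries of 4 hpf only, 1 with the 5 libraries compared and 10 with the shared column counted as 10 pg (added after seeing the data). With only the 5 libraries compared 24 genes rose, 20 of them among the 33. Leaving out single libraries gave 19 to 35 risen and 4 to 110 fallen genes. Against 10 pg, where 40 genes were higher and 77 lower with CHX, DESeq2 called 158 and 263, the shared column as 10 pg with CHX 272 and 290, in both groups 0 and 7, and as 10 pg 0 and 0. Libraries of 4 hpf only gave 0 higher and 8 lower, no count filter gave 23 higher, and leaving out single libraries gave 0 to 195 higher and 2 to 129 lower. The cause of these shifts was not tested.

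Same-numbered libraries of 10 pg with CHX and control had correlations of deviations of -0.191 and -0.346, and those of 10 pg with CHX and 10 pg of 0.804. The latter is 1 value for both numbers, since with 2 libraries per group the deviations from the mean are equal and opposite. What these libraries might share was not tested. With the replicate block within each age, 20 genes rose and 9 fell against controls, and 20 were higher and 39 lower against 10 pg. With the replicate block over all libraries the counts were 32, 19, 29 and 62. The 6 minus 4 hpf count of 7005 stayed between 4777 and 8023. No named gene changed sign where it was called in the main fit or in the alternative. Genes called in neither could change sign across the alternatives, as did foxa (-0.51 to 0.07) and SOX17 (-0.64 to 3.32). Of the values, 1866 kept their side of the threshold, 377 lost it and 19 gained it. Low totals limit genes below 1 CPM.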
